A study of Mus musculus with 18 samples.

Results

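MHC class I molecules carry peptides made inside the cell to its surface, where CD8 T cells read them, and NKG2D ligands are class I-related surface proteins that mark stressed or transformed cells for natural killer cells. The expression of 10 genes of these 2 systems was followed in mouse fibroblasts that lost Ezh2, the enzyme of Polycomb repressive complex PRC2. The 10 genes were taken from a list by name, each read by a probe set that carries its symbol and no other (the brightest such probe set where a gene had several), out of 18820 genes measured in this way. They were H2-K1, B2m, Tap1, Tap2, Tapbp, Psmb8, Psmb9, Nlrc5, Raet1e and H60b.

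The cells were C2 iMEFs, a single clone of immortalized mouse embryonic fibroblasts transformed with c-Myc. Before treatment this clone carried 1 floxed and 1 deleted allele of Ezh2 (Ezh2 flox/Δ) and a Cre recombinase fused to the estrogen receptor under the ROSA26 promoter (ROSA26-CreERT2), so that tamoxifen removes the remaining Ezh2. RNA was hybridized to 18 Affymetrix Mouse Gene ST arrays, 2 in each of 9 groups. A time course (8 arrays) held cells given vehicle (EtOH) and tamoxifen-treated cells taken at day 5, day 18 and day 32. A rescue experiment (10 arrays) held a control that kept its floxed Ezh2 allele (labelled Ezh2 WT) and Ezh2 null cells (labelled Ezh2 -/-, Ezh2-mutant). It also held cells that received Flag-tagged Ezh1 or Ezh2 by retrovirus ahead of the deletion (Ezh1 pre-rescue, Ezh2 pre-rescue, by the gene given). The last group received Ezh2 in this way after the deletion (Ezh2 post-rescue). All groups share the clone, its transformation by c-Myc and its culture in DMEM with serum. The tamoxifen groups of the time course have no tamoxifen-treated counterpart that kept Ezh2. The labels also give no day for the vehicle cells. Tamoxifen, time in culture and loss of Ezh2 thus cannot be told apart in the time course. The study induced the deletion with tamoxifen in the rescue experiment too, in the pre-rescue cells after Ezh1 or Ezh2 was added. Tamoxifen and loss of Ezh2 thus cannot be told apart between Ezh2 null cells and control either. The study describes the 2 arrays of a group as biological replicates, and no source used here says whether they came from separate cultures, so p-values measure only the spread between arrays, which may be technical.

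A class I molecule consists of a heavy chain, of which H2-K1 encodes a classical one in the mouse, and of the invariant light chain beta 2-microglobulin, encoded by B2m. Peptides are cut by the proteasome, in which Psmb8 and Psmb9 encode catalytic subunits of the interferon-inducible immunoproteasome, then pumped into the endoplasmic reticulum by the transporter of Tap1 and Tap2 and loaded with the help of tapasin (Tapbp). Nlrc5 encodes the transactivator of class I genes, and many genes of the pathway are known to be raised by interferons. Raet1e and H60b encode mouse ligands of NKG2D, an activating receptor of natural killer and T cells. PRC2 places the histone mark H3K27me3, which is linked to silencing of genes.

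On the RefSeq annotation of GRCm38.p6, 6 of the 10 genes lie on chromosome 17, in and near the MHC. Psmb9, Tap1, Psmb8 and Tap2 follow each other there with 0 other protein-coding genes between them, H2-K1 lies 10 protein-coding genes from Psmb9, and Tapbp lies 6 from H2-K1. Raet1e and H60b are neighbours on chromosome 10, with 0 protein-coding genes between them. Psmb9 and Tap1 are transcribed head to head from starts that are separated by 225 bases, and this shared stretch is shown because the 2 genes did not move together in the cells. The bases before B2m, the gene of the shared light chain, and before Raet1e, the gene with the largest change, are shown beside it, with 30 bases of the region upstream of a start of H2-K1, the gene with the largest early change. Capitals mark matches to 5 motifs searched on both strands, namely an interferon regulatory factor element (GAAANNGAA), a gamma-activated site (TTCNNNGAA), a CCAAT box (CCAAT), a kappa B site (GGGNNTTCC) and the core of an X1 box (TAGCAAC).
Tap1-Psmb9, chr17:34187331-34187555, strand of Tap1: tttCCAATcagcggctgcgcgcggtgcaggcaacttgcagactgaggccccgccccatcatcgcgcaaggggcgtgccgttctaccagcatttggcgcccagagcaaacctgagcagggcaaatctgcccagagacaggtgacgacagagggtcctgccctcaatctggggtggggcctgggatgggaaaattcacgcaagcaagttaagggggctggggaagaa
B2m, chr2:122147437-122147686, plus strand: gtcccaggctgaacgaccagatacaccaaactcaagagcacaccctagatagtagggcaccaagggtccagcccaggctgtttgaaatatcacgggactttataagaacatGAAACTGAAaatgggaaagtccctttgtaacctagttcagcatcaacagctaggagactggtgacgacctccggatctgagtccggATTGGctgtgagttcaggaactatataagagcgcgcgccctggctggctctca
Raet1e, chr10:22158319-22158541, plus strand: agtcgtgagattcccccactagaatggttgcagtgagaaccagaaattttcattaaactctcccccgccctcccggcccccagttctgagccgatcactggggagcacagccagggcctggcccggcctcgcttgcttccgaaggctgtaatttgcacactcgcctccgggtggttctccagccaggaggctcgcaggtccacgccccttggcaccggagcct
H2-K1, chr17:34000439-34000468, minus strand: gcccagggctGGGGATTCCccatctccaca

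The sequences are those of RefSeq on GRCm38.p6. The table of promoters held 9 windows for 7 of the 10 genes, and none for Tap2, Nlrc5 and H60b. In the 250 bases before a start, the CCAAT box was found in 7 of the 9 windows and in 33.8% of all 32851 windows of the genome, but these 7 are not separate sites, since the windows of H2-K1 overlap and share a match and the matches of Tap1 and Psmb9 are the same bases. The interferon regulatory factor element was found in 1, that of B2m, from 139 to 131 bases before the start, against 7.13% of all windows. The gamma-activated site was found in 1, that of Psmb8, against 7.02%, the kappa B site in 2, both of H2-K1 and the same bases, against 4.98%, and the X1 box core in 0, against 3.16%. The stretch between Psmb9 and Tap1 held 1 match, a CCAAT box. A match is a run of letters, and nothing was measured here on binding to it.

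Expression is given as the deposited log2 RMA value, a background-corrected and normalized intensity on which 1 unit is a 2-fold difference. The experiments were normalized apart (median per array from 4.98 to 5.08 in the time course and from 6.16 to 6.27 in the rescue experiment), so levels are compared within each. The arrays of a group correlated across genes with r from 0.994 to 0.999. Among fibroblast markers, 7 of 8 lay above the median gene in both experiments, while 1 of 8 leukocyte markers and 0 of 3 endothelial and 0 of 3 epithelial markers did. Of 5 dendritic and B cell markers, 1 lay above it in the time course and 0 in the rescue experiment. The Ezh2 probe set differed from control by 0.01 ± 0.17 in Ezh2 null cells (SE, adjusted p = 0.99) and thus checks nothing about the deletion, which removes only a part of the gene. In the time course the Ezh2 probe set was above vehicle, by 0.32 ± 0.084 on day 18 (adjusted p = 0.02) and by 0.38 ± 0.084 on day 32 (adjusted p = 0.0068), and Ezh1 fell by 0.99 ± 0.077 at day 32 (adjusted p = 1.21e-05). The Ezh2 pre-rescue arrays read 12.26 and 11.84 for it, and the Ezh2 post-rescue arrays 12.55 and 12.12, against 10.36 and 10.56 in control. Ezh1 read 11.68 and 11.85 in Ezh1 pre-rescue against 9.50 and 9.82 in control. A gene is said to have risen or fallen where the Benjamini-Hochberg adjusted p of limma over all 18820 genes was under 0.05, at any fold, and each ± gives the SE of a log2 change from limma, with n = 2 arrays in a group.

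The time course asked how these genes moved as the cells went on without Ezh2. At day 5, 4 of the 10 genes (H2-K1, Tap1, Nlrc5 and Tap2) rose and 0 fell, against 11.0% of all genes that rose and 5.72% that fell. At day 18, 5 (Raet1e, H60b, Psmb9, Nlrc5 and Tap1) were above vehicle and 2 (Tapbp and B2m) below, against 15.2% and 10.5% of all genes. At day 32, 4 (Raet1e, H60b, Psmb9 and Nlrc5) were above and 2 (Tapbp and B2m) below, against 18.4% and 14.2%. Between day 5 and day 18, 3 genes rose (Raet1e, H60b and Psmb9) and 5 fell (H2-K1, Tap2, Tapbp, B2m and Tap1), against 15.6% and 16.1%. Between day 18 and day 32, 0 rose and 1 fell (Tapbp), against 1.40% and 2.75%, and the count at an unadjusted p under 0.05 was 2 of the 10, against 18.8% of all genes. The median change of the 10 genes was 0.09 at day 5, 0.22 at day 18 and 0.17 at day 32, where that of all genes lay between −0.02 and −0.01.

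H2-K1 and the transporter genes formed an early group. H2-K1 read 6.82 and 6.74 with vehicle, followed by 8.08 and 8.09 (day 5), 6.82 and 6.82 (day 18) and 6.84 and 6.67 (day 32). The day 5 arrays stood above all 6 others, which overlapped. H2-K1 rose by 1.30 ± 0.080 at day 5 (2.47-fold, adjusted p = 1.7e-05) and fell by 1.27 ± 0.080 from day 5 to day 18 (adjusted p = 3.4e-06), and its differences from vehicle of 0.04 ± 0.080 at day 18 and −0.03 ± 0.080 at day 32 did not pass the test. Tap1 read 6.09 and 6.18 with vehicle, followed by 6.98 and 7.14 (day 5), 6.43 and 6.63 (day 18) and 6.41 and 6.26 (day 32). Its highest arrays were again those of day 5, and the later arrays stayed above both vehicle arrays. Tap1 rose by 0.93 ± 0.098 at day 5 (1.91-fold, adjusted p = 0.000287), was 0.40 ± 0.098 above vehicle at day 18 (adjusted p = 0.0155) and still 0.21 ± 0.098 above at day 32 (adjusted p = 0.147). Tap2, the other subunit of the transporter, read 6.51 and 6.42 with vehicle, followed by 6.97 and 6.95 (day 5), 6.32 and 6.25 (day 18) and 6.35 and 6.14 (day 32). The day 5 arrays were the highest and all 4 later arrays lay below both vehicle arrays. Tap2 rose by 0.50 ± 0.088 at day 5 (1.41-fold, adjusted p = 0.00448), while its changes from vehicle of −0.18 ± 0.088 at day 18 (adjusted p = 0.163) and of −0.22 ± 0.088 at day 32 (adjusted p = 0.0838) did not pass. The call of Tap1 at day 18 was lost without vehicle replicate 1 (adjusted p = 0.0855) or day 18 replicate 2 (adjusted p = 0.119), and a fall of Tap2 at day 32 was called without day 32 replicate 1 (adjusted p = 0.0373). With each array centred on its median Tap2 fell below vehicle at both day 18 (−0.34, adjusted p = 0.0203) and day 32 (−0.34, adjusted p = 0.0191), and with quantile normalization likewise (adjusted p = 0.0384 and 0.0318). The calls at day 5 of the 4 genes were kept whichever of the 8 arrays was left out. Heavy chain genes of the mouse are near-identical over long stretches, so part of the H2-K1 signal may be shared with them. Of 4 genes listed for classical class I, the 2 with a probe set of their own were H2-K1 and B2m. The others were not analysed here.

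The light chain and tapasin fell late. B2m read 12.13 and 12.13 with vehicle, followed by 12.33 and 12.32 (day 5), 11.89 and 11.87 (day 18) and 11.88 and 11.78 (day 32). The groups of B2m did not overlap except for day 18 and day 32, and the steps between them were small. B2m was 0.20 ± 0.071 above vehicle at day 5 (adjusted p = 0.0901) and fell below it by 0.25 ± 0.071 at day 18 (adjusted p = 0.0289) and by 0.30 ± 0.071 at day 32 (adjusted p = 0.00926). The day 18 call was lost when either vehicle array or either day 18 array was left out (adjusted p from 0.069 to 0.126), and the day 32 call without day 32 replicate 2 (adjusted p = 0.0763). Tapbp read 9.65 and 9.57 with vehicle, followed by 9.50 and 9.50 (day 5), 9.02 and 8.78 (day 18) and 8.22 and 8.28 (day 32). It went down in steps, with no overlap between day 5, day 18 and day 32. Tapbp changed by −0.11 ± 0.091 at day 5 (adjusted p = 0.476) and fell below vehicle by 0.71 ± 0.091 at day 18 (adjusted p = 0.000368) and by 1.36 ± 0.091 at day 32 (2.56-fold, adjusted p = 5.23e-06). Tapbp was also the gene of the 10 that fell between day 18 and day 32, by 0.64 ± 0.091 (adjusted p = 0.00614).

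The immunoproteasome genes split. Psmb9 read 5.68 and 5.63 with vehicle, followed by 5.66 and 5.63 (day 5), 6.39 and 6.27 (day 18) and 6.31 and 6.37 (day 32). The 4 late arrays stood above the 4 early ones. Psmb9 rose by 0.67 ± 0.076 at day 18 (1.59-fold, adjusted p = 0.000172) and 0.68 ± 0.076 at day 32 (adjusted p = 0.000106), after a change of −0.02 ± 0.076 at day 5 (adjusted p = 0.923). Across the 225 bases shown above, its neighbour Tap1 had risen at day 5, when Psmb9 had not passed the test. Psmb8 read 4.13 and 4.21 with vehicle, followed by 4.22 and 4.06 (day 5), 3.99 and 4.44 (day 18) and 4.33 and 4.28 (day 32). Its groups overlapped and lay below the median gene of the time course (5.64), where small changes are hard to see. Psmb8 passed the test in 0 of the 15 comparisons made. Of the 5 immunoproteasome genes listed, which include the activator subunits, 1 (Psme1) fell at day 5, and at day 32 Psmb9 rose while Psme1 and Psmb10 fell, Psmb10 by 0.28 ± 0.083 (adjusted p = 0.0286). Of 14 measured subunit genes of the constitutive proteasome, 0 rose and 5 fell at day 5, and 3 rose and 0 fell at both day 18 and day 32. Of all genes, 11.0% rose and 5.72% fell at day 5. At day 18, 15.2% rose and 10.5% fell, and at day 32, 18.4% rose and 14.2% fell.

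Nlrc5, the transactivator, rose at all 3 times. It read 8.04 and 7.98 with vehicle, followed by 8.52 and 8.68 (day 5), 8.63 and 8.48 (day 18) and 8.62 and 8.38 (day 32). Every tamoxifen array lay above both vehicle arrays, and the 3 times overlapped. Nlrc5 rose by 0.59 ± 0.101 at day 5 (adjusted p = 0.0037), 0.54 ± 0.101 at day 18 (adjusted p = 0.00339) and by 0.49 ± 0.101 at day 32 (adjusted p = 0.00445). The array holds 19 probe sets of Nlrc5 alone, which read different stretches of the same transcripts. Of these, 19 were higher than vehicle at day 5 and 18 at each later time, with a median difference of 0.51 at day 5, 0.34 at day 18 and 0.47 at day 32.

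The NKG2D ligands rose late and by the largest amounts of the 10. Raet1e read 3.54 and 3.41 with vehicle, followed by 3.56 and 3.31 (day 5), 6.19 and 6.06 (day 18) and 6.07 and 5.78 (day 32). The 2 early groups overlapped near the low end of the scale and all late arrays lay far above them. Raet1e rose by 2.65 ± 0.119 at day 18 (6.27-fold, adjusted p = 7.32e-07) and 2.45 ± 0.119 at day 32 (5.47-fold, adjusted p = 7.73e-07), against −0.04 ± 0.119 at day 5 (adjusted p = 0.873). H60b read 4.16 and 4.67 with vehicle, followed by 4.34 and 4.27 (day 5), 6.53 and 6.51 (day 18) and 5.89 and 6.08 (day 32). It showed the same order, with day 32 a little below day 18. H60b rose by 2.11 ± 0.144 at day 18 (4.31-fold, adjusted p = 8.35e-06) and 1.57 ± 0.144 at day 32 (2.97-fold, adjusted p = 3.28e-05). Its difference of −0.54 ± 0.144 between day 32 and day 18 did not pass (adjusted p = 0.0751), and passed without either vehicle array (adjusted p = 0.016). Intensities this low flatten on an array, so the rises of both genes may be understated. Raet1e and H60b are the 2 ligands of a list of 9 that had a probe set of their own, and the other 7 were not analysed here. Whether part of the signal of Raet1e or H60b is shared with related genes was not tested. Of the 2 genes of the receptor itself, Klrk1 and Hcst, 0 were called at day 5, day 18 or day 32 against vehicle.

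**Figure D1:**
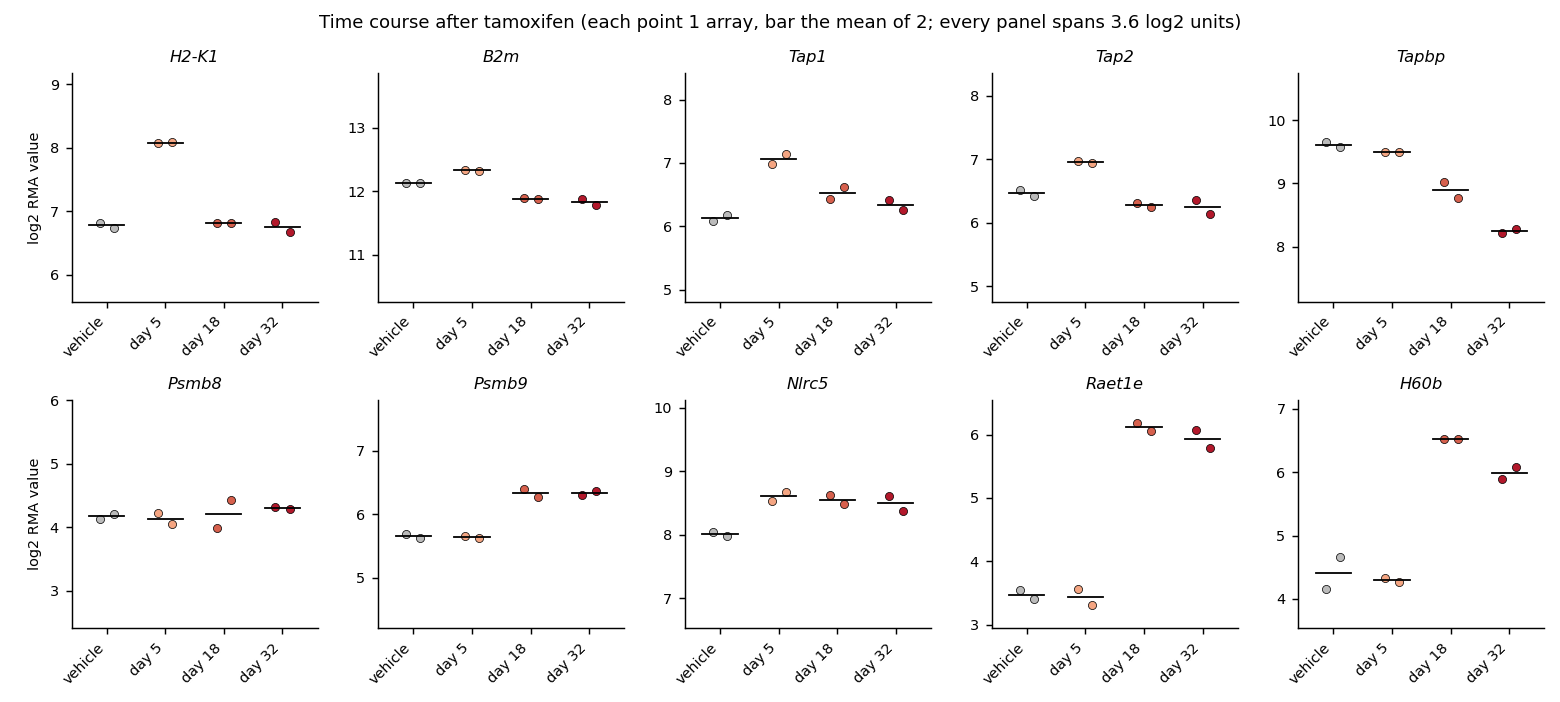
Log2 RMA values of the 10 genes in the time course, 1 panel per gene. The x axis gives vehicle and the days after tamoxifen (5, 18 and 32), each point is 1 array and each bar the mean of 2, and every panel spans the same number of log2 units. H2-K1, Tap1 and Tap2 peak at day 5, Psmb9, Raet1e and H60b are high at day 18 and day 32, Tapbp goes down, and Psmb8 is flat.

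Genes around the 10 were taken from lists of the same pathway, and their counts are to be read against all genes, of which 11.0% rose and 5.72% fell at day 5, 15.2% rose and 10.5% fell at day 18, and 18.4% rose and 14.2% fell at day 32. Of 14 measured nonclassical class I genes, whose products mostly pair with beta 2-microglobulin too, 4 rose and 0 fell at day 5 (median 0.20), 1 rose and 4 fell at day 18 (median −0.03) and 2 rose and 5 fell at day 32 (median −0.13). H2-Q6 rose by 1.19 ± 0.117 at day 5 (adjusted p = 0.000206), as H2-K1 did. Cd1d1, which presents lipids, rose by 1.57 ± 0.175 at day 18 (adjusted p = 0.000162), while Fcgrt, the neonatal Fc receptor, fell by 1.65 ± 0.098 at day 32 (adjusted p = 2.49e-06) and Mr1, which presents vitamin metabolites, by 1.10 ± 0.086 (adjusted p = 1.22e-05). Of the 10 measured genes of peptide loading, 3 rose at day 5 (Tap1, Tap2 and the trimming peptidase gene Erap1, at 0.35 ± 0.074, adjusted p = 0.0106) and 2 fell at day 32 (Tapbp and Erap1, the latter by 0.25 ± 0.074, adjusted p = 0.0251).

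Of 10 measured regulators of class I, 3 rose and 0 fell at day 5 (11.0% and 5.72% of all genes), namely Nlrc5, Irf1 by 0.71 ± 0.091 (adjusted p = 0.000863) and Irf2 by 0.63 ± 0.090 (adjusted p = 0.00157). At day 18, 4 rose and 3 fell (15.2% and 10.5% of all genes), with Irf1 below vehicle by 0.41 ± 0.091 (adjusted p = 0.00938), and at day 32, 3 rose and 2 fell (18.4% and 14.2%), with Rfx5 below vehicle by 0.64 ± 0.079 (adjusted p = 0.000196). Of 17 measured interferon-stimulated genes, 17 rose at day 5 with a median change of 1.09, 16 fell at day 18 with a median of −1.37 and 17 fell at day 32 with a median of −2.17. Stat2, a signal transducer of the interferon receptors, rose by 0.92 ± 0.094 at day 5 (adjusted p = 0.000254) and fell below vehicle by 1.69 ± 0.094 at day 32 (adjusted p = 1.8e-06). H2-K1 and Tap1 shared the day 5 rise with these genes, and at day 32 did not pass the test while these genes lay below vehicle. Whether the interferon-stimulated genes had a part in the changes of the 10 was not tested.

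Of 10 measured ligands of other receptors of natural killer and T cells, 3 rose at day 5, among them Cd274, which encodes PD-L1, by 0.80 ± 0.103 (adjusted p = 0.000912), and Clec2d, a ligand of the inhibitory receptor NKR-P1, by 1.22 ± 0.121 (adjusted p = 0.000206). At day 32, 0 rose and 3 fell (Cd80, Clec2d and Cd47). Of 9 measured class II genes, 2 rose at day 5 and 3 at each later time, with 1 falling at day 32, and the highest rise was that of H2-Ab1, 1.18 ± 0.124 at day 18 (adjusted p = 0.00011). Leukocyte markers gave 0 calls of 8 at each of the 3 times against vehicle, and their mean level per array stayed between 3.62 and 3.73. Dendritic and B cell markers, which include H2-Ab1 and H2-Eb1, had a mean per array of 4.26 to 4.52, with 2 of 5 rising and 1 falling at day 18 and 2 rising and 2 falling at day 32. Fibroblast markers moved too, with 4 of 8 rising and 0 falling at day 5, 1 rising and 3 falling at day 18, and 0 rising and 3 falling at day 32, and their mean per array stayed between 9.03 and 9.62. Of 3 endothelial markers, 1 (Pecam1) rose, by 0.61 ± 0.091 on day 5 (adjusted p = 0.0019) and by 0.37 ± 0.091 on day 32 (adjusted p = 0.0114). The part of these markers in the changes of the 10 genes was not tested.

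The rescue experiment asked which genes differ between Ezh2 null cells and control. It also asked whether Ezh1 or Ezh2, given before or after the deletion, sets these differences back. In Ezh2 null cells 3 of the 10 genes rose (Raet1e, H2-K1 and H60b) and 0 fell, against 1.20% of all genes that rose and 0.755% that fell. The median change of the 10 was 0.71 and that of all genes −0.03. Against control, 0 of the 10 were called in Ezh1 pre-rescue (0.0106% of all genes rose and 0% fell), 0 in the pre-rescue with Ezh2 (0% and 0%) and 0 in Ezh2 post-rescue (0.510% and 0.197%). By limma, 1, 2 and 6 of the 10 genes passed an unadjusted p under 0.05 in these 3 comparisons, against 9.76%, 10.2% and 9.51% of all genes. The median change of the 10 from control was 0.17 in Ezh1 pre-rescue, 0.08 in Ezh2 pre-rescue and 0.49 in Ezh2 post-rescue.

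H2-K1 read 6.27 and 6.71 in control and 8.16 and 7.65 in Ezh2 null cells, the Ezh1 pre-rescue gave 6.90 and 6.64, the Ezh2 pre-rescue 6.59 and 6.66, and the Ezh2 post-rescue 7.63 and 7.37. The Ezh2 null and post-rescue arrays stood above all others, and the control and pre-rescue arrays overlapped. H2-K1 was 1.41 ± 0.201 above control in Ezh2 null cells (2.67-fold, adjusted p = 0.0181) and 1.01 ± 0.201 above it in Ezh2 post-rescue (adjusted p = 0.0954). Raet1e read 5.13 and 4.90 in control and 6.27 and 6.99 in Ezh2 null cells, the Ezh1 pre-rescue gave 5.35 and 5.04, the Ezh2 pre-rescue 5.18 and 4.96, and the Ezh2 post-rescue 6.37 and 6.03. It fell into the same 2 sets of groups. Raet1e was 1.62 ± 0.239 above control in Ezh2 null cells (3.07-fold, adjusted p = 0.0194) and 1.19 ± 0.239 in Ezh2 post-rescue (adjusted p = 0.0984). Its control arrays lay at the level of the T cell gene Cd3e (5.36 and 5.28 in control), so these changes too may be understated. H60b read 5.69 and 6.07 in control and 6.74 and 7.39 in Ezh2 null cells, the Ezh1 pre-rescue gave 6.14 and 6.09, the Ezh2 pre-rescue 5.94 and 5.96, and the Ezh2 post-rescue 7.09 and 6.78. Again the Ezh2 null and post-rescue arrays lay above the rest. H60b was 1.18 ± 0.207 above control in Ezh2 null cells (2.27-fold, adjusted p = 0.0362) and 1.06 ± 0.207 in Ezh2 post-rescue (adjusted p = 0.0935).

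Calls in this experiment were close to the threshold. The rise of H2-K1 in Ezh2 null cells was kept whichever array was left out, that of Raet1e was lost without control replicate 2 (adjusted p = 0.0726) or without either Ezh2 post-rescue array (adjusted p = 0.0501), and that of H60b without either control, Ezh1 pre-rescue or Ezh2 pre-rescue array or Ezh2 null replicate 2 (adjusted p from 0.0613 to 0.143). A fit of the Ezh2 null and control arrays alone called 0 of the 3 (adjusted p of 0.352, 0.303 and 0.183 for H2-K1, Raet1e and H60b). In Ezh2 post-rescue, H2-K1 was called above control without control replicate 2 (adjusted p = 0.018), and Raet1e (adjusted p = 0.00151) and H60b (adjusted p = 0.0323) without either Ezh2 null array.

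Giving Ezh1 or Ezh2 ahead of the deletion was compared with Ezh2 null cells. In Ezh1 pre-rescue 0 of the 10 genes were above Ezh2 null and 2 (H2-K1 and Raet1e) below, against 0.861% and 1.44% of all genes. In Ezh2 pre-rescue 1 (Tapbp) was above and 3 (Raet1e, H2-K1 and H60b) below, against 3.15% and 4.00%. H2-K1 was lower than in Ezh2 null cells by −1.13 ± 0.201 with Ezh1 (adjusted p = 0.0401) and −1.28 ± 0.201 with Ezh2 (adjusted p = 0.0175). Raet1e was lower by −1.44 ± 0.239 with Ezh1 (adjusted p = 0.0339) and −1.56 ± 0.239 with Ezh2 (adjusted p = 0.0165). H60b was lower by −0.95 ± 0.207 with Ezh1 (adjusted p = 0.0593) and −1.11 ± 0.207 with Ezh2 (adjusted p = 0.0255). These contrasts share the Ezh2 null arrays with the contrast against control. The study's methods name no empty retrovirus for the control or Ezh2 null cells. Infection and drug selection thus cannot be told apart from the gene given. The Ezh1 and Ezh2 pre-rescues differed in 0 of the 10 genes (0 at an unadjusted p under 0.05 by limma), against 0.00531% of all genes above and 0% below. The difference was 0.15 ± 0.201 for H2-K1, 0.12 ± 0.239 for Raet1e and 0.16 ± 0.207 for H60b, which leaves room for differences larger than these errors. The calls against Ezh2 null were close to the threshold, and many were lost with an array left out while the change kept most of its size. With Ezh1, H2-K1 lost its call without any 1 of the Ezh2 null, pre-rescue or post-rescue arrays (adjusted p from 0.0631 to 0.209, changes from −1.38 to −0.88) and Raet1e without any 1 of the pre-rescue or post-rescue arrays (adjusted p from 0.0736 to 0.195, changes from −1.58 to −1.29). With Ezh2, H2-K1, Raet1e and H60b lost theirs without either Ezh2 pre-rescue array (adjusted p from 0.106 to 0.196, at changes from −1.65 for Raet1e to −1.04 for H60b), and H60b also without Ezh2 null replicate 2 (−0.79, adjusted p = 0.11). H60b was called with Ezh1 without either control array (adjusted p = 0.0393) or Ezh2 null replicate 1 (adjusted p = 0.02). Without either control array, Tap1 was called below Ezh2 null with Ezh1 (adjusted p = 0.00733) and with Ezh2 (adjusted p = 0.00414), as was Nlrc5 (adjusted p = 0.0164 and 0.00444), and Tap2 with Ezh1 (adjusted p = 0.0441).

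Giving Ezh2 back after the deletion was compared with Ezh2 null and with Ezh2 pre-rescue. Against Ezh2 null, 1 gene (Tapbp) was above and 0 below, where 0.191% of all genes were above and 0.409% below. H2-K1 differed from Ezh2 null by −0.40 ± 0.201 (adjusted p = 0.441), Raet1e by −0.43 ± 0.239 (adjusted p = 0.494) and H60b by −0.13 ± 0.207 (adjusted p = 0.867). Without Ezh2 null replicate 1, Raet1e was called lower by −0.93 (adjusted p = 0.0154). Against Ezh2 pre-rescue, 0 of the 10 were called (4 at an unadjusted p under 0.05 by limma, against 14.4% of all genes), where 0.574% of all genes were above and 0.308% below. H2-K1 was 0.88 ± 0.201 higher after than before (adjusted p = 0.111), Raet1e 1.13 ± 0.239 (adjusted p = 0.091) and H60b 0.98 ± 0.207 (adjusted p = 0.0884), with both post-rescue arrays above both pre-rescue arrays for each gene. Without either control array Tap1 was called below Ezh2 null (−0.45, adjusted p = 0.044), and H2-K1 (adjusted p = 0.0231) and Nlrc5 (adjusted p = 0.0109) above Ezh2 pre-rescue, and without either Ezh2 null array Raet1e (adjusted p = 0.00196) and H60b (adjusted p = 0.035).

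**Figure D2:**
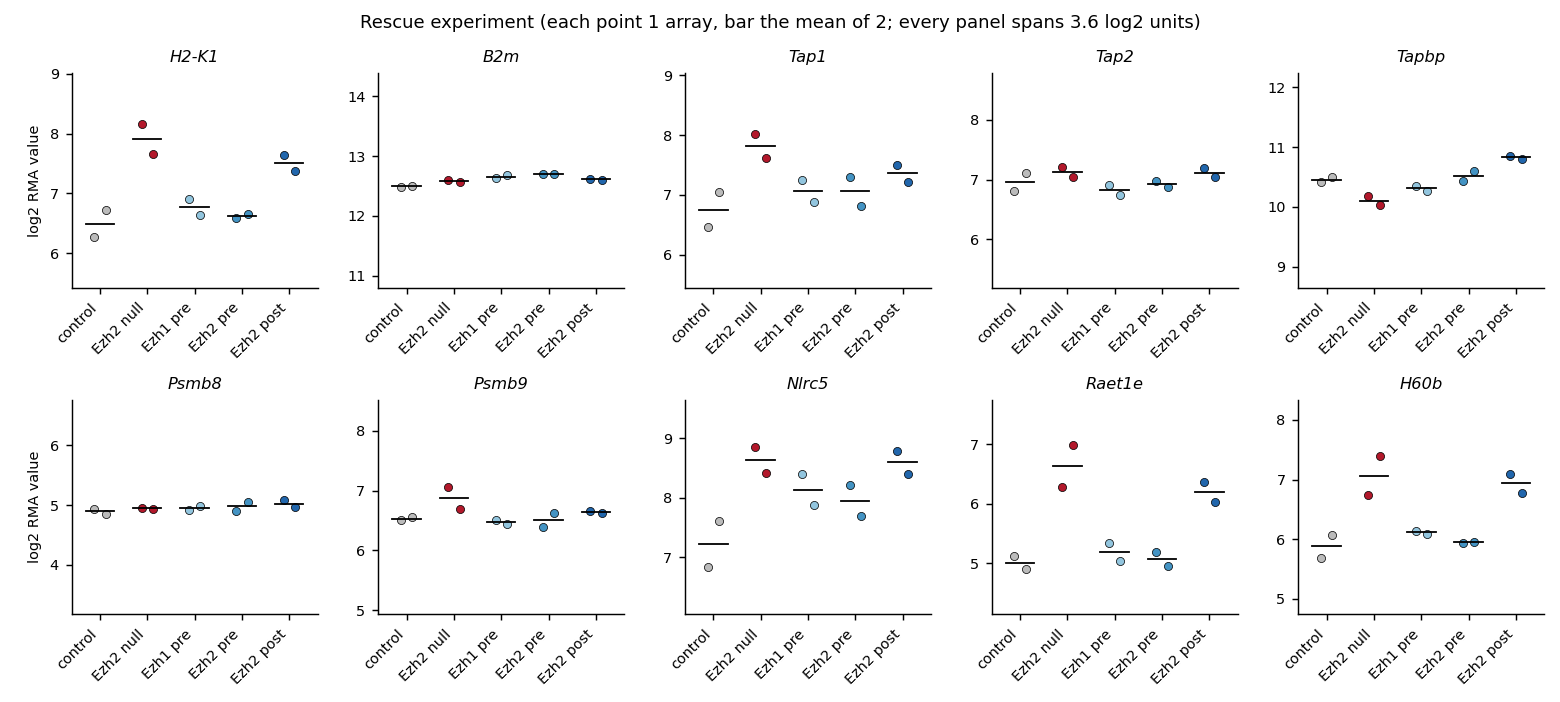
Log2 RMA values of the 10 genes in the rescue experiment, 1 panel per gene. The x axis gives the 5 groups, where pre and post stand for Ezh1 or Ezh2 given before and after deletion of Ezh2, each point is 1 array and each bar the mean of 2, and every panel spans the same number of log2 units. H2-K1, Raet1e and H60b are high in Ezh2 null and Ezh2 post-rescue cells and low in control and both pre-rescues.

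The transporter, the transactivator and the proteasome genes gave no call in Ezh2 null cells. Tap1 read 6.46 and 7.04 in control and 8.02 and 7.61 in Ezh2 null cells, the Ezh1 pre-rescue gave 7.25 and 6.88, the Ezh2 pre-rescue 7.30 and 6.81, and the Ezh2 post-rescue 7.50 and 7.22. Its control arrays lay 0.58 log2 units apart, and the Ezh2 null arrays stood above all others. Tap1 differed from control by 1.06 ± 0.237 in Ezh2 null cells (adjusted p = 0.0766), and the rise was called without control replicate 1 (0.58, adjusted p = 0.0307) or control replicate 2 (1.55, adjusted p = 0.00187). Nlrc5 read 6.84 and 7.61 in control and 8.84 and 8.42 in Ezh2 null cells, the Ezh1 pre-rescue gave 8.40 and 7.87, the Ezh2 pre-rescue 8.21 and 7.69, and the Ezh2 post-rescue 8.79 and 8.40. All arrays of the other groups lay above both control arrays, which differed by 0.77. Nlrc5 differed from control by 1.40 ± 0.292 in Ezh2 null (adjusted p = 0.0641), 0.91 ± 0.292 in Ezh1 pre-rescue (adjusted p = 0.377), 0.72 ± 0.292 in Ezh2 pre-rescue (adjusted p = 0.46) and 1.36 ± 0.292 in Ezh2 post-rescue (adjusted p = 0.114). Without control replicate 2, Nlrc5 and Tap1 were called above control in all 4 other groups, Nlrc5 at 2.02 in Ezh2 null (adjusted p = 0.000686), 1.53 in Ezh1 pre-rescue (adjusted p = 0.00315), 1.33 in Ezh2 pre-rescue (adjusted p = 0.00572) and 1.98 in Ezh2 post-rescue (adjusted p = 0.000812). Without control replicate 1, Nlrc5 was called at 0.78 in Ezh2 null (adjusted p = 0.0151) and 0.75 in Ezh2 post-rescue (adjusted p = 0.0279). All 19 probe sets of Nlrc5 were higher than control in each of the 4 groups, with a median difference of 0.53 in Ezh2 null, 0.39 in Ezh1 pre-rescue, 0.34 in Ezh2 pre-rescue and 0.52 in Ezh2 post-rescue, and the probe set used gave the largest difference of the 19 in Ezh2 null and in Ezh2 post-rescue.

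Tap2 lay between 6.75 and 7.21 on the 10 arrays, with overlapping groups and a difference of 0.17 ± 0.125 in Ezh2 null cells (adjusted p = 0.595). B2m lay between 12.48 and 12.70, with both control arrays below the other 8, and differed from control by 0.10 ± 0.072 in Ezh2 null cells (adjusted p = 0.592) and by at most 0.21 ± 0.072, in Ezh2 pre-rescue (adjusted p = 0.394). Psmb8 lay between 4.86 and 5.08, the narrowest range of the 10 beside B2m. Psmb9 read 6.51 and 6.56 in control and 7.06 and 6.70 in Ezh2 null, with the other 6 arrays between 6.39 and 6.66, and its difference of 0.35 ± 0.132 did not pass (adjusted p = 0.261).

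Within the rescue experiment, Tapbp was called only in the comparisons of Ezh2 pre-rescue and Ezh2 post-rescue with Ezh2 null. It read 10.41 and 10.49 in control and 10.18 and 10.03 in Ezh2 null cells, the Ezh1 pre-rescue gave 10.35 and 10.27, the Ezh2 pre-rescue 10.43 and 10.60, and the Ezh2 post-rescue 10.85 and 10.81. The Ezh2 null arrays were the lowest and the Ezh2 post-rescue arrays the highest. Tapbp differed from control by −0.35 ± 0.096 in Ezh2 null cells (adjusted p = 0.132) and by 0.37 ± 0.096 in Ezh2 post-rescue (adjusted p = 0.19). Against Ezh2 null it rose by 0.41 ± 0.096 in Ezh2 pre-rescue (adjusted p = 0.0462) and by 0.72 ± 0.096 in Ezh2 post-rescue (1.65-fold, adjusted p = 0.0268). The first of these calls was lost without any 1 of the 8 arrays other than control (adjusted p from 0.0506 to 0.327), and the second without any of these except Ezh2 null replicate 1 (adjusted p from 0.0546 to 0.299).

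**Figure D3:**
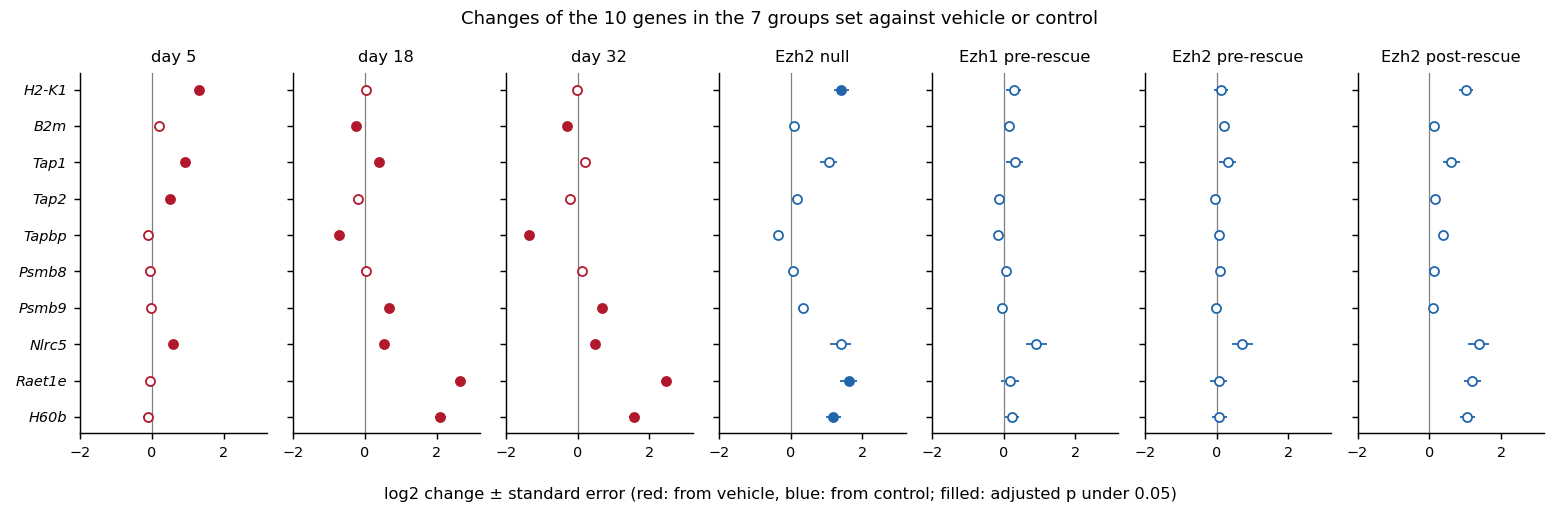
Log2 change of the 10 genes from vehicle (3 panels in red) or from control (4 panels in blue). The x axis is the log2 change, bars are standard errors from limma (n = 2 arrays per group), and filled points have an adjusted p under 0.05. Raet1e and H60b lie furthest to the right at day 18 and at day 32. In Ezh2 null and in Ezh2 post-rescue Raet1e, H60b, H2-K1 and Nlrc5 lie to the right, and Tap1 does too in Ezh2 null. Tapbp lies furthest to the left at day 32.

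Both experiments hold cells without Ezh2, and the effect in Ezh2 null cells was set against that at day 32 in a fit of all 18 arrays. Of the 10 genes, 3 (H2-K1, Tapbp and B2m) had a higher change in Ezh2 null cells and 0 a lower one, against 2.48% and 5.64% of all genes. H2-K1 changed by −0.03 ± 0.080 at day 32 and 1.41 ± 0.201 in Ezh2 null cells, a difference of 1.44 ± 0.229 (adjusted p = 0.00273). Tapbp changed by −1.36 ± 0.091 and −0.35 ± 0.096, a difference of 1.01 ± 0.135 (adjusted p = 0.00105). B2m changed by −0.30 ± 0.071 and 0.10 ± 0.072, a difference of 0.40 ± 0.094 (adjusted p = 0.0208), which was lost without vehicle replicate 1, day 32 replicate 2 or Ezh2 null replicate 1 (adjusted p from 0.0618 to 0.0908). The NKG2D ligands rose in both, and the differences of −0.83 ± 0.289 for Raet1e (adjusted p = 0.103) and −0.39 ± 0.275 for H60b (adjusted p = 0.497) did not pass, although that of Raet1e did without Ezh2 null replicate 2 (−1.33, adjusted p = 0.0011). Tap1 (0.86 ± 0.275, adjusted p = 0.0781) and Nlrc5 (0.91 ± 0.333, adjusted p = 0.122) passed without control replicate 2, as did Tap2, and Psmb9 without Ezh2 null replicate 1 (adjusted p = 0.0345). The effects come from separate experiments with their own control and normalization, and the labels give no time since deletion for Ezh2 null cells, so experiment and time cannot be told apart.

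**Figure D4:**
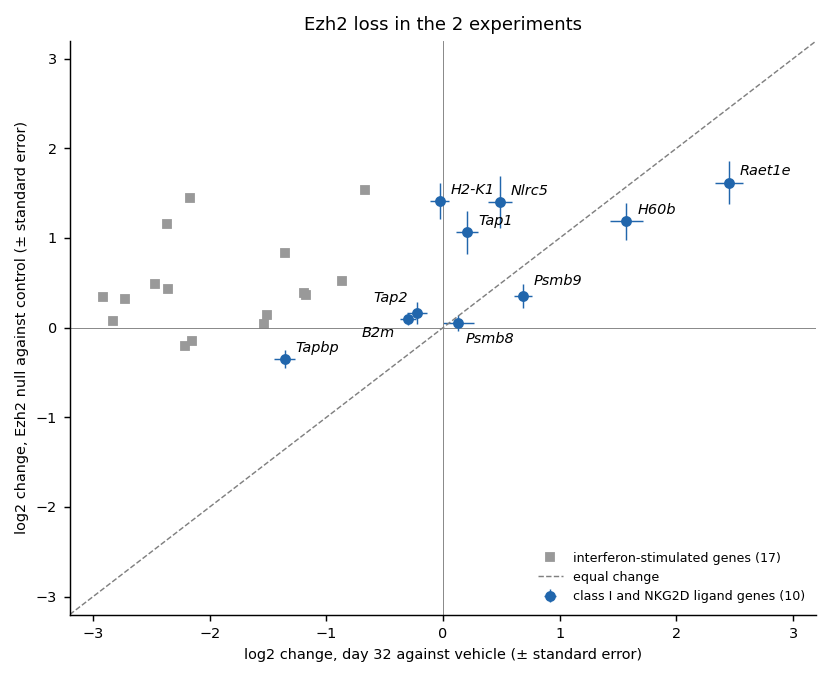
Log2 change at day 32 against vehicle (x axis) and in Ezh2 null cells against control (y axis). Circles are the 10 genes, with standard errors from limma, and the dashed line marks equal change. Grey squares, without error bars, are those of the 17 interferon-stimulated genes that fit within the axes. Ifit3 lies beyond the left edge, as it read 10.00 and 9.78 with vehicle and 5.32 and 5.96 at day 32. Raet1e and H60b lie at the upper right, H2-K1 lies above 0 on the y axis alone, and the interferon-stimulated genes lie left of 0.

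In the rescue experiment few genes were called at all, and the counts of the lists are to be read against 1.20% of all genes that rose and 0.755% that fell in Ezh2 null cells. Of 17 interferon-stimulated genes, 1 (Rsad2, an antiviral enzyme) rose in Ezh2 null cells, by 1.54 ± 0.212 (adjusted p = 0.0164), and in Ezh2 post-rescue, by 2.31 ± 0.212 (adjusted p = 0.00465), with list medians of 0.36 and 0.70. In Ezh2 post-rescue, 0.510% of all genes were above control. In the comparison of Ezh2 null with day 32, 17 of the 17 had a higher change in Ezh2 null cells (median difference 2.21), and 3 of 11 genes of interferon receptor signalling did, Irf9 by 1.72 ± 0.170 (adjusted p = 0.000102). Of all genes, 2.48% had a higher change in that comparison and 5.64% a lower one. Of 14 nonclassical class I genes, 10 genes of peptide loading, 5 immunoproteasome genes, 14 constitutive proteasome subunits, 10 regulators, 10 other ligands and 9 class II genes, 0 were called in Ezh2 null cells against control. Leukocyte markers gave 0 calls of 8, with a mean per array of 5.24 to 5.42. Of 8 fibroblast markers, 0 were called in Ezh2 null cells against control. In Ezh2 pre-rescue 3 (Pdgfrb, Col1a2 and Col3a1) were higher than in Ezh2 null, against 3.15% of all genes. In Ezh1 pre-rescue 2 (Pdgfrb and Col1a2) were higher than in Ezh2 null, against 0.861%. In Ezh2 post-rescue 1 (Col1a1) was higher than in control, against 0.510%. Fibroblast markers had a mean per array of 9.83 to 10.5 over the experiment, and their part in the results was not tested.

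Over the 18 arrays, each experiment centred on its own mean, the 10 genes fell into patterns that were described by Pearson's r. The arrays come in groups of 2 and are not independent, so r is a description. H2-K1 and Tap1 had r = 0.90, H2-K1 and Tap2 0.84, Raet1e and H60b 0.97, and H2-K1 and Raet1e 0.015. Among all genes that spanned at least 1 log2 unit between group means, those most like H2-K1 were Gem (0.91), Tap1 (0.90) and Iigp1 (0.89), the latter an interferon-inducible GTPase. For Tap2 they were Ifih1 (0.91), Bst2 (0.90) and Fgf2 (0.90), and for B2m Ifit3b (0.95), Eif2ak2 (0.94) and H1f2 (0.93). Raet1e was most like Igf2bp3 (0.98), Gata3 (0.98) and Prdm6 (0.98), and H60b like Raet1e (0.97), Susd4 (0.97) and Fhod3 (0.97). Psmb9 was most like Agtr2 (0.97), Parm1 (0.97) and Hlf (0.96), Tapbp like Ccl5 (0.95), Bmf (0.94) and Hsd17b11 (0.93), and Nlrc5 like Parp8 (0.89), Dtna (0.87) and Bnc2 (0.87). The highest r for Psmb8, 0.59 with Dlg2, was well below these.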

How the data were processed

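Per probe set, the deposited log2 values are intensities that the authors normalized by RMA with oligo. In the rescue experiment the methods removed a batch shift between the 2 replicates by limma, and no label tells if the deposited table includes this step. The array's genome build is not given in the sources used here. Of 28440 probe sets, 21217 carried 1 symbol (1881 several, 5342 none), matched by identifier for 21184, and for 1386 genes with several, the one with the highest mean was kept.

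Tests were two-sided (lmFit and eBayes of limma 3.58.1, under R 4.3.3), with Benjamini-Hochberg adjustment over 18820 genes. The time course had no block (4 residual and 5.27 prior degrees of freedom). The rescue experiment had the replicate number as a block for the stated batch (4 and 3.62), and the fit of both had it in the rescue arrays (8 and 4.89). The script was tested on simulated data. The 10 genes, the 17 lists and the tests were chosen with earlier results of these data known. Up to 4 called genes per list and comparison were named by smallest adjusted p, and 3 most alike genes per member, skipping predicted genes. Replicate numbers were checked for pairing: differences between replicates correlated between groups with r from −0.07 to 0.05 in the time course (6 pairs) and from −0.43 to 0.54 in the rescue experiment (10 pairs), so the numbers by themselves do not pair arrays. Probe sets shared by several genes were not used. The probe set of H60b also carries an accession that matched no gene here, and may read a related transcript. The number of arrays limits the precision. Alternatives were the mean over a gene's probe sets, median centring, quantile normalization, a filter on the 30% of genes with the lowest mean, trended moderation, all probe sets, the 2 groups compared alone, the block, thresholds and each array left out.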

Additional observations from a re-analysis of the deposited data

Results flagged for a closer look

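The effect of Ezh2 loss differed between the 2 experiments for 3 of the 10 genes by the test of the difference itself (limma, all 18 arrays). For H2-K1 the change in Ezh2 null cells was 1.442 log2 units higher than that at day 32, for Tapbp 1.006 and for B2m 0.3956. H2-K1 changed by −0.03 at day 32 and 1.41 in Ezh2 null cells, Tapbp by −1.36 and −0.35, and B2m by −0.30 and 0.10. Experiment, normalization and time since deletion cannot be told apart here. With 2 arrays per group, no array could be tested for standing apart from its group.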

How the results depend on the processing

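Of 2980 values of single genes under the alternatives, 2783 kept their side of the threshold, 110 lost a call, 87 gained one and 0 called values reversed. Of the 2783, 70 changed sign while called under neither setting. The filter on dim genes left out Psmb8 in the rescue experiment and moved none of the counts by over 1.5 times. Counts below are of the 10 genes called, in both directions together. With median centring 5 were called in Ezh2 null against control, 3 in Ezh2 post-rescue against control and 1 in Ezh2 post-rescue against Ezh2 pre-rescue. With quantile normalization 5 were called in Ezh2 null against control. With trended and robust moderation 2 were called between day 18 and day 32. Over all probe sets 0 were called in Ezh1 pre-rescue against Ezh2 null and 0 in Ezh2 post-rescue against Ezh2 null. In fits of only the groups compared 2 were called between day 18 and day 32, 0 in Ezh2 null against control, 4 in Ezh2 post-rescue against control, 1 in Ezh1 pre-rescue against Ezh2 null and 4 in Ezh2 post-rescue against Ezh2 pre-rescue. With a 2-fold minimum 1 was called at day 5, 2 at day 18, 3 at day 32, 3 between day 5 and day 18, 0 between day 18 and day 32 and 0 in Ezh2 post-rescue against Ezh2 null. With the methods' threshold (adjusted p under 0.15 and 2-fold) these 6 counts were the same, and 5 were called in Ezh2 null, 4 in Ezh2 post-rescue against control and 1 in Ezh2 post-rescue against Ezh2 pre-rescue. The cause of these shifts was not tested.

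With each array left out, the count was 4 to 4 at day 5, 5 to 7 at day 18, 5 to 7 at day 32, 8 to 8 between day 5 and day 18 and 1 to 2 between day 18 and day 32. It was 2 to 4 in Ezh2 null, 0 to 2 in Ezh1 pre-rescue, 0 to 2 in Ezh2 pre-rescue and 0 to 3 in Ezh2 post-rescue against control. It was 0 to 6 in Ezh1 pre-rescue, 0 to 6 in Ezh2 pre-rescue and 0 to 2 in Ezh2 post-rescue against Ezh2 null, 0 to 0 between the pre-rescues, 0 to 2 in Ezh2 post-rescue against Ezh2 pre-rescue, and 2 to 6 for the difference between Ezh2 null and day 32. A group left with 1 array was assumed to vary like the others. With the replicate block in the time course the counts were 4, 7, 6, 8 and 1, as without it. Without the replicate block in the rescue experiment 4 were called in Ezh2 null against control and 3 in Ezh1 pre-rescue against Ezh2 null, and the other counts were as with it. Median centring moved the median change of all genes to −0.15 at day 5, −0.18 at day 18 and −0.14 at day 32. Under it and under quantile normalization the call of Tap1 at day 18 was lost (adjusted p = 0.063 and 0.08), and under both Nlrc5 (adjusted p = 0.0221 and 0.0305) and Tap1 (adjusted p = 0.0305 and 0.0409) were called in Ezh2 null. Nlrc5 was also called there with the mean over its probe sets (0.58, adjusted p = 0.0437).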
